A study of Zea mays with 32 samples.

Results

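In RNA from maize leaf primordia, 51 of 39756 genes in the deposited table were on in at least 2 landraces and off in at least 2 others. The genes were chosen by their own normalized counts in 4 libraries per landrace. A landrace was called off for a gene when its 4 libraries were all at 5 or below, and on when they were all at 50 or above. All genes meeting this were kept, so the landrace differences below are what the choice used and are described without a test.

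Maize genomes differ in which genes they hold, and plants also differ in which of their genes are silenced or expressed in a given organ. Reads from many varieties are usually aligned to a single reference genome. A gene can therefore read at or near 0 because it is missing, because it is not transcribed, or because its sequence has diverged from the reference. These cannot be told apart from counts of RNA. In bulk tissue, fewer cells expressing a gene and less RNA per cell cannot be told apart either.

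The series compared the ninth leaf (labelled V9) with the fifth leaf (labelled V5), as primordia at plastochron stage 4, in Mushito, Palomero, Zapalote, Nal-tel, Tabloncillo, Jala, Reventador and Gordo. A plastochron is the interval between successive leaf initiations, and the stage counts them for the primordium taken. All plants carried the label heat and were grown at 35 °C, so no library from a cooler condition enters any comparison here. Each landrace and leaf had 2 libraries, which makes 16 groups and 32 libraries. Landraces are populations selected on farms, and plants of 1 landrace need not share alleles. The labels do not say whether libraries came from separate plants, from pools or from 1 RNA, so p-values measure only the spread between these libraries. Library names ran in separate series for the ninth and the fifth leaf, so library preparation and leaf cannot be told apart.

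Libraries held 54.8 M to 121.0 M recovered reads (median 66.0 M), and 1 read was worth between 0.562 and 1.30 normalized counts. No ID of the table matched the RefSeq gene table at hand, and the files do not pair IDs with names. Genes are therefore given by ID without name, role, position or sequence, and the tissue label was not checked against marker genes. Counts of near-identical copies or overlapping genes are uncertain under these conditions, which was not tested. Normalized counts are not corrected for gene length, so an order of genes by these values is not an order of transcript levels. A few libraries stood apart in the members. The fifth leaf replicate 1 of Reventador was the only one of the 4 Reventador libraries above 5 in 8 members, with a median value of 26.3 there. Its count over all genes was 691, within the range of 291 to 845 over the 32 libraries. The ninth leaf replicates 1 and 2 of Tabloncillo were each alone above 5 in 4 members, with median values of 39.1 and 60.8. Their counts over all genes were 398 and 545, also within that range, and replicate 1 was the deepest library, at 121.0 M reads. Without the fifth leaf replicate 1 of Reventador, and with that landrace judged by its other libraries, the rule kept 69 genes in place of 51.

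The 51 genes gave 408 combinations of gene and landrace. Of these, 113 were on, 122 were off and 173, or 42.4%, were neither. No member had a clear state in all 8 landraces: 6 members were neither in 2 landraces, 19 in 3 and 26 in 4. On in 2 landraces was the usual form, with 41 members, while 9 members were on in 3 and 1 in 4. Off in 2 landraces was seen in 36 members, off in 3 in 10 and off in 4 in 5.

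On values of members were low beside those of the table as a whole, on a scale not corrected for length. Over the 452 libraries of on landraces, values ran from 50.3 to 3967 with a median of 167. The mean of an on landrace had a median of 174 in members, against 1544 for all genes of the table. On values also varied more between the 4 libraries of a landrace. The SD of log2 values within an on landrace had a median of 0.58 in members and 0.23 in other genes. Among on means between 120 and 318, the middle of the members' range, it was 0.63 in members and 0.44 in other genes.

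Off values were mostly 0. Of 488 libraries of off landraces, 346, or 70.9%, were at 0. In 90 of the 122 off combinations every library had 3 reads or fewer, which was set as a floor. The floor covers counting error only, and libraries with a few reads are not the same as libraries at 0. All 4 libraries were at 0 in 31 of the 90 combinations. At these depths an off state means not detectable beyond a few reads, and absence was not shown.

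**Figure D1:**
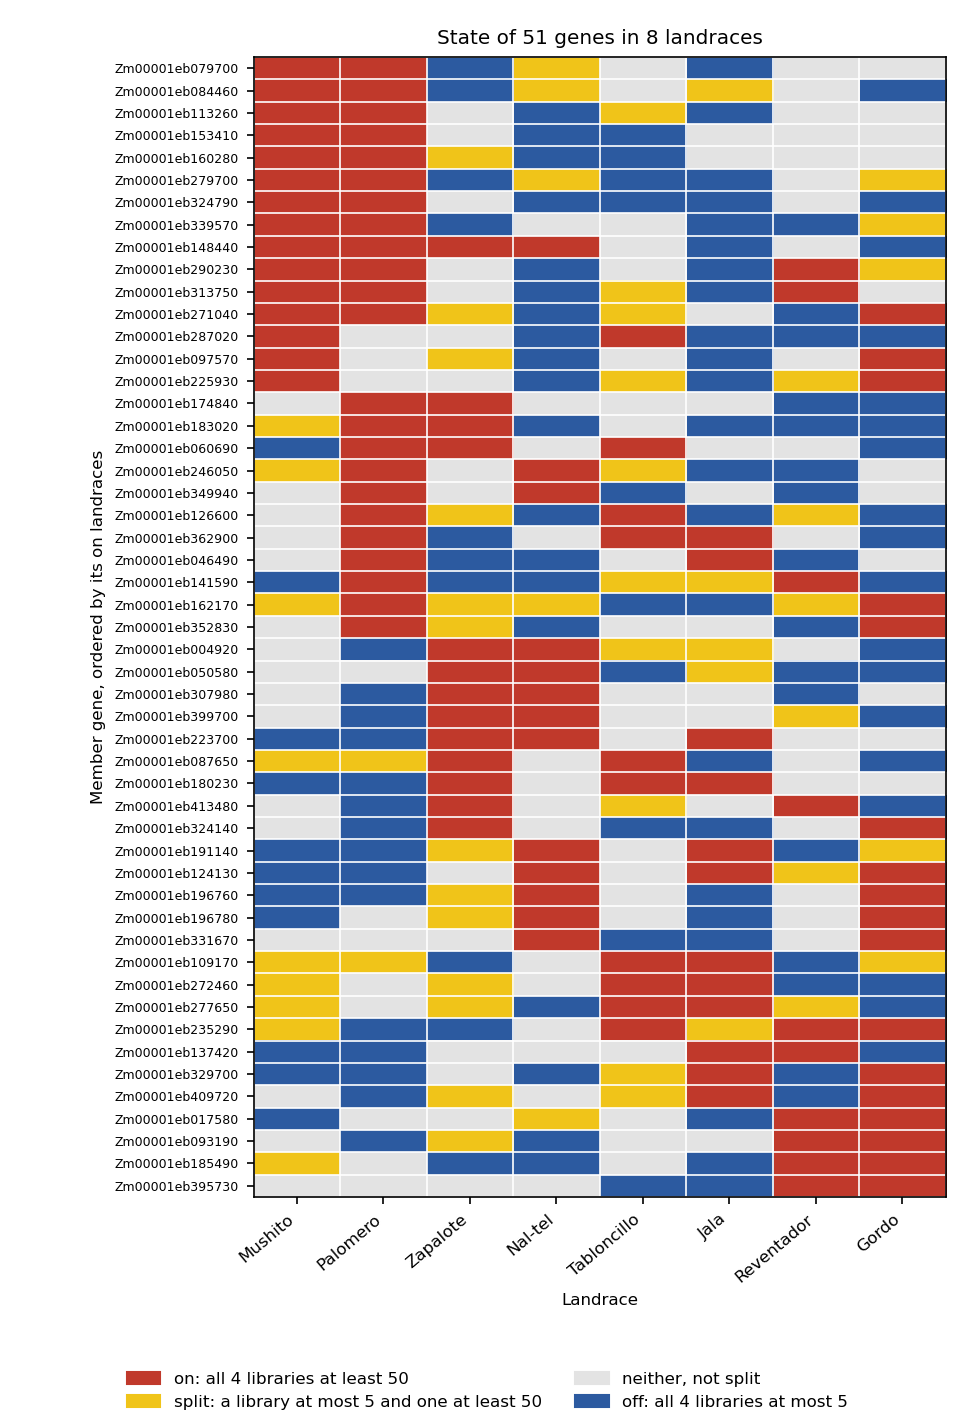
State of each of the 51 genes (rows) in each of the 8 landraces (columns), ordered by the landraces that are on. Red marks on, blue off, yellow a split landrace with a library at 5 or below and another at 50 or above, and grey the remaining ones; no row is red or blue throughout, and 55 cells are yellow.

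The combinations that were neither on nor off had several forms. In 82 of the 173 all 4 libraries were below 50, and in 36 the values were of another mixed kind. The remaining 55, or 31.8%, were split, with at least 1 library at 5 or below and at least 1 at 50 or above. In 35 of the 55 split landraces the 2 libraries of 1 leaf stood on opposite sides. Only 1 split landrace was on in the ninth leaf and off in the fifth, and 2 were off in the ninth leaf and on in the fifth. The other 17 had further mixtures. At least 1 split landrace was found in 35 members.

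Zm00001eb162170 had the most split landraces, 4 in number. In Mushito it held 27.7 and 0 in the ninth leaf and 40.6 and 87.6 in the fifth leaf. In Zapalote it held 37.9 and 167 in the ninth leaf and 35.1 and 0 in the fifth leaf. The same gene was at 59.3 and 0 in the ninth leaf and 1.11 and 40.5 in the fifth leaf of Nal-tel. In each of these landraces, in at least 1 leaf, 1 library was at 0 or near it while the other was well above 5. In Palomero, where the gene was on, it held 89.7 and 128 in the ninth leaf and 157 and 56.2 in the fifth leaf. In Gordo, also on, the ninth leaf held 72 and 85.1 and the fifth 92.4 and 61.8, and all 8 libraries of Tabloncillo and Jala were at 0.

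The thresholds fall within a continuous range. The highest value in an off landrace was 4.98, in the ninth leaf replicate 2 of Nal-tel for Zm00001eb097570, where the other 3 libraries were at 0. The lowest value in an on landrace was 50.3, in the ninth leaf replicate 2 of Mushito for Zm00001eb339570, beside 67.5 in ninth leaf replicate 1 and 58.6 and 258 in the fifth leaf. Just outside, Zm00001eb108160 was not off in Mushito because 1 library held 5.67. Likewise Zm00001eb322900 was not on in Nal-tel because 1 library held 49.3. A further 109 genes were on in at least 2 landraces and off in exactly 1, and 154 were on in exactly 1 and off in at least 2.

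States chosen in some libraries were then read in libraries that the choice had not used. Applied to the ninth leaf alone, the rule kept 211 genes. In the fifth leaf, 395 of their 563 on states held (70.2%) and 7 were opposite (1.24%), and 316 of their 571 off states held (55.3%) and 5 were opposite (0.876%). Applied to the fifth leaf alone it kept 202 genes. In the ninth leaf, 320 of their 495 on states held (64.6%) and 8 were opposite (1.62%), and 322 of their 545 off states held (59.1%) and 7 were opposite (1.28%). Choosing in 1 leaf and reading in the other kept most states, a few switched sides, and the rest fell into the middle range.

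Choosing by replicate number gave much the same. Of 164 genes chosen in replicate 1, 70.1% of on and 64.5% of off states held in replicate 2. Of 205 genes chosen in replicate 2, 70.7% of on and 51.8% of off states held in replicate 1. Over all genes of the table, on states held in 96.7% to 97.2% and off states in 88.1% to 90.1%. These shares are not matched for level, and the difference was not tested. On means had a median of 1544 over the table and 174 in the 51 members. The genes chosen here from a part of the libraries are a wider set, and their level was not taken. A total of 80 genes were kept in each leaf on its own, and 78 in each replicate number on its own.

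The landraces took part unequally. Palomero was on in 23 members and off in 15, and Gordo was on in 17 and off in 18. Mushito was on in 15 and off in 11, Zapalote on in 13 and off in 10, and Nal-tel on in 13 and off in 19. Jala was on in 12 and off in 23, Reventador on in 10 and off in 16, and Tabloncillo on in 10 and off in 10. Tabloncillo and Zapalote had the fewest clear states, with 31 and 28 members in neither state, and the most split ones, with 10 and 13. Over all genes the landraces were much closer, with 48.9% to 50.2% of genes on and 25.6% to 28.7% off.

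The 51 members fell into 28 sets of on landraces, and 17 of the sets held 1 member. Mushito with Palomero was the most frequent set, with 8 members. Reventador with Gordo and Zapalote with Nal-tel had 4 members each, and Nal-tel with Gordo and Tabloncillo with Jala 3 each. Among sets of off landraces, Nal-tel with Jala was the most frequent with 5 members. Mushito with Palomero, Palomero with Gordo, and Tabloncillo with Jala were off together, with no other landrace off, in 3 members each.

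Counted pair by pair, Mushito and Palomero shared a state in 19 of the 21 members in which both had one (90.5%), 12 on and 7 off. Zapalote and Nal-tel shared it in 9 of 10 (90%), 6 on and 3 off. Tabloncillo and Jala shared it in 11 of 14 (78.6%), 5 on and 6 off. The next pair was Nal-tel and Jala with 13 of 21 (61.9%), of which 10 were off, followed by Reventador and Gordo with 10 of 17 (58.8%). Over the 28 pairs together the share was 39% (170 of 436), a value set by the numbers of on and off landraces that the rule asks for.

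At the other end, Mushito and Tabloncillo shared a state in 1 of 7 members (14.3%) and Mushito and Jala in 3 of 20 (15%). Mushito and Jala were never on together, and neither were Nal-tel and Reventador or Nal-tel and Tabloncillo. The counts per pair are small, and a member adds to several pairs. Genes outside the 51 were also counted for the same pairs. These are numbers of genes, not shares of the genes with a state in both landraces, so they differ in kind from the shares above. Of such genes, 8 were on in 1 and off in the other of Mushito and Palomero, the lowest number of any pair. Zapalote and Tabloncillo had 10 and Zapalote and Nal-tel 12, against a median of 32 over the 28 pairs and 51 for Jala and Reventador, the highest number. Tabloncillo and Jala had 26.

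**Figure D2:**
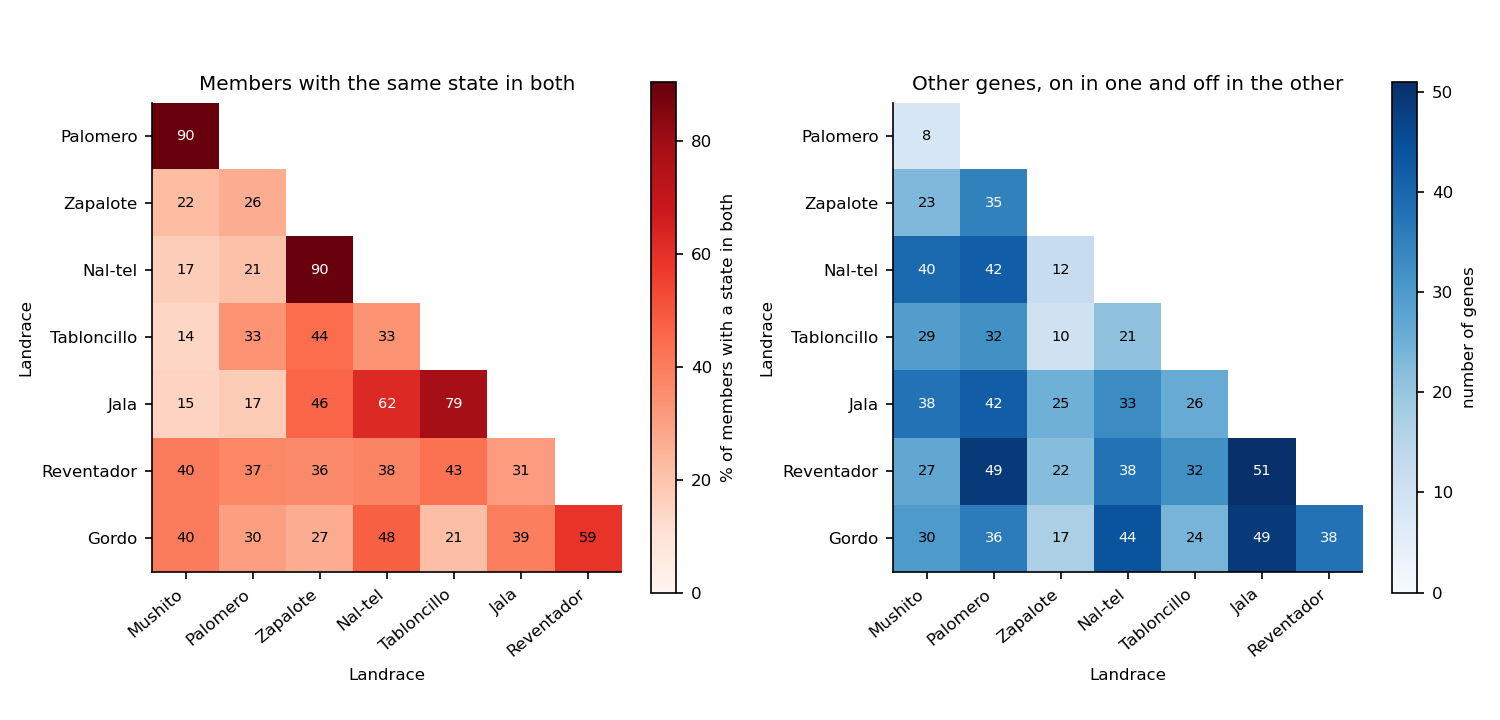
Left, percent of members with the same state among members with a state in both landraces of a pair; right, number of other genes that were on in 1 landrace of the pair and off in the other. Mushito with Palomero has the darkest cell on the left (90.5%) and the lowest number on the right (8).

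Of the 8 members on in Mushito and Palomero alone, Zm00001eb279700 had 234 and 477 in the ninth leaf and 522 and 186 in the fifth leaf of Mushito. In Palomero it had 388 and 482 in the ninth leaf and 499 and 167 in the fifth leaf. It was off in Zapalote, Tabloncillo and Jala, where the highest of 12 libraries was 2.2. The 8 on libraries stood far above the 12 off libraries without overlap, as the rule requires. Elsewhere single libraries broke rank: Nal-tel held 4.16 and 129 in the ninth leaf and 0 and 1.09 in the fifth leaf. Gordo held 191 and 0 in the ninth leaf and 0 and 143 in the fifth leaf, and Reventador was at 45.5 in the fifth leaf replicate 1 and at 1.94 or below in the other 3.

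Zm00001eb324790 had the same on landraces. Mushito held 191 and 233 in the ninth leaf and 69 and 517 in the fifth leaf, and Palomero 69.7 and 99.4 in the ninth leaf and 95.9 and 70 in the fifth leaf. Nal-tel, Tabloncillo, Jala and Gordo were off, with no library above 4.51. Zapalote missed the off state by 1 library at 11.5 and Reventador by 1 at 15.2. No other landrace reached the values of Mushito and Palomero.

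The 2 landraces were also on together in larger sets. Zm00001eb148440 was the member with 4 on landraces. Mushito held 159 and 125 in the ninth leaf and 180 and 158 in the fifth leaf, and Palomero 201 and 377 in the ninth leaf and 459 and 237 in the fifth leaf. Zapalote held 151 and 72.9 in the ninth leaf and 179 and 101 in the fifth leaf, and Nal-tel 127 and 78 in the ninth leaf and 261 and 67.9 in the fifth leaf. Jala and Gordo were off, with no library above 4.4. This gene was thus on in both of the pairs that most often shared a state.

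Zm00001eb399700 was on in Zapalote and Nal-tel alone. Zapalote held 1113 and 694 in the ninth leaf and 1027 and 401 in the fifth leaf, and Nal-tel 729 and 732 in the ninth leaf and 670 and 762 in the fifth leaf. Palomero and Gordo were off, with no library above 4.41. Mushito missed the off state by 1 library at 11.3. Jala was between the states, with 63.8 and 20.8 in the ninth leaf and 22.6 and 171 in the fifth leaf. Nal-tel varied least here, and its 4 libraries lay inside the range of the 4 of Zapalote.

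In the same set, Zm00001eb004920 held 359 and 285 in the ninth leaf and 535 and 140 in the fifth leaf of Zapalote. In Nal-tel it held 507 and 474 in the ninth leaf and 719 and 622 in the fifth leaf. Palomero and Gordo were off with 3.31 as the highest library. Mushito was at 27.4 in the fifth leaf replicate 1, with the other 3 libraries at 4.47 or below, and Jala ran from 3.3 to 164.

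For the Reventador and Gordo set, Zm00001eb093190 held 391 and 987 in the ninth leaf and 425 and 294 in the fifth leaf of Reventador. In Gordo it held 539 and 511 in the ninth leaf and 373 and 389 in the fifth leaf. Palomero and Nal-tel were off, with no library above 4.44. Zapalote was split, with 0 and 102 in the ninth leaf and 7.01 and 0 in the fifth leaf. Apart from that library at 102, no library outside Reventador and Gordo was above 22.

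Zm00001eb272460 was on in Tabloncillo and Jala alone. Tabloncillo held 93.9 and 103 in the ninth leaf and 287 and 284 in the fifth leaf, and Jala 89.1 and 160 in the ninth leaf and 319 and 306 in the fifth leaf. Reventador and Gordo were off with 4.35 as the highest library. Mushito held 76 and 150 in the ninth leaf against 3.78 and 60.8 in the fifth leaf. Zapalote held 119 and 447 in the ninth leaf against 1.75 and 0 in the fifth leaf. Where the gene was on in all libraries the ninth leaf was the lower one, and in Mushito and Zapalote it was the higher one.

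**Figure D3:**
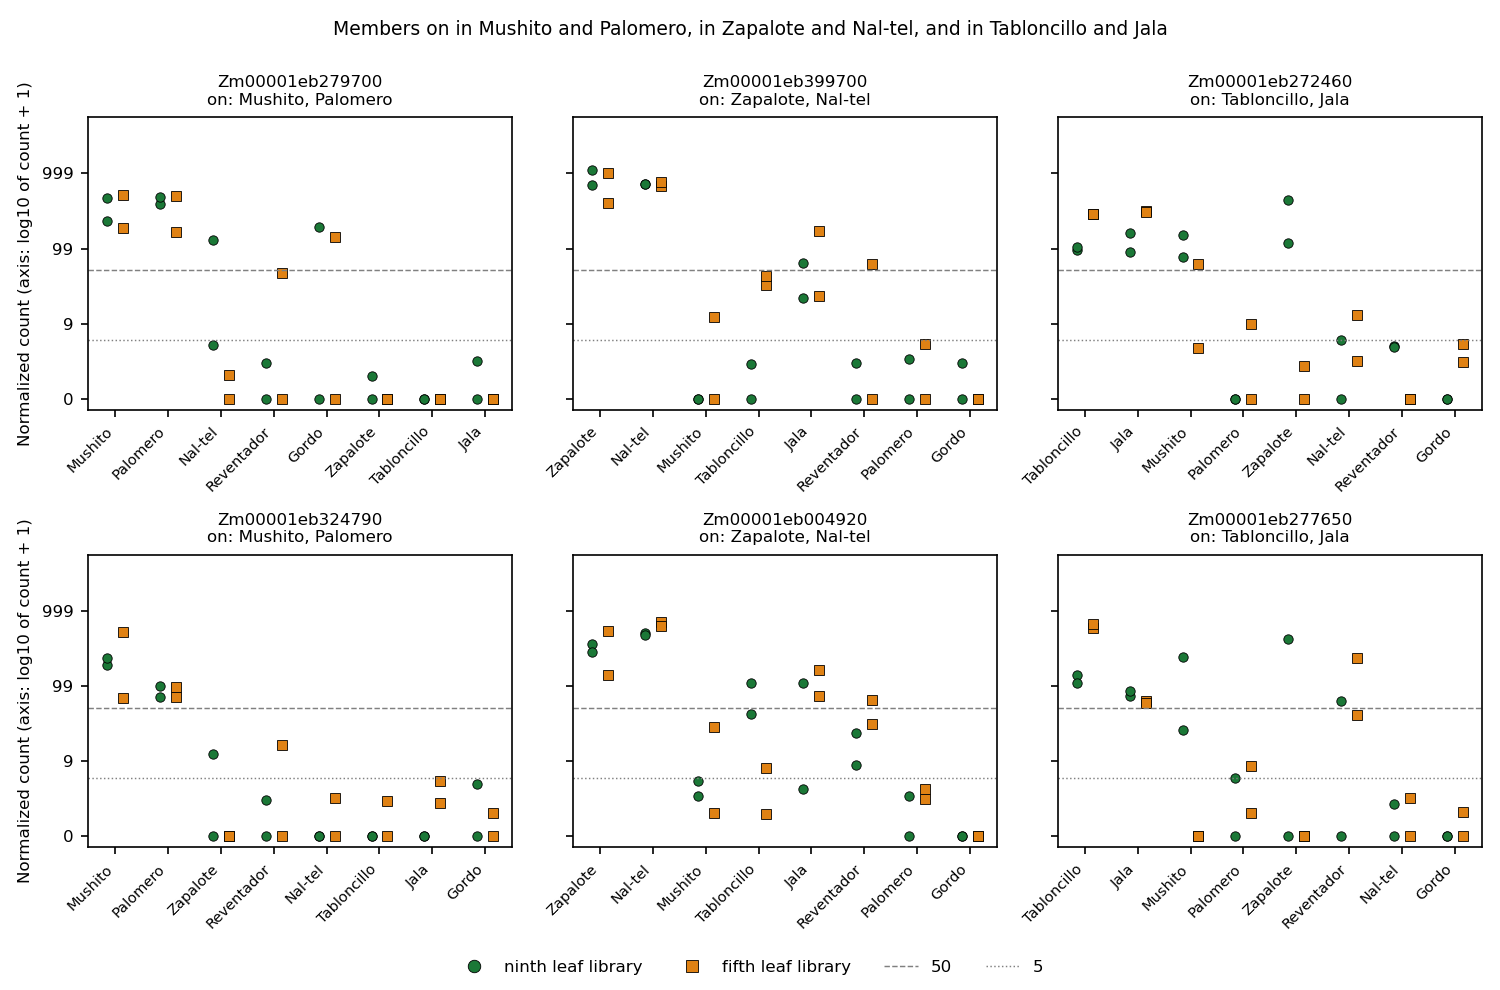
Normalized counts in all 32 libraries for 6 members, with landraces ordered from on (left) through neither to off (right) in each panel; circles are libraries of the ninth leaf and squares those of the fifth leaf, the dashed line marks 50 and the dotted line 5. On landraces sit wholly above the dashed line, and the middle landraces scatter across both lines, as Zapalote does in Zm00001eb272460 with 119 and 447 in the ninth leaf and 1.75 and 0 in the fifth leaf.

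Runs of members in ID order were counted, and whether their number was high or low for 51 of 39756 genes was not tested. IDs of this kind were used only for the order in which the table lists genes, and distances in bases were not used here. A single run of directly adjacent members was found, Zm00001eb196760 and Zm00001eb196780. The other 49 members stood alone, with at least 59 table genes between neighbouring members outside the run. Over all neighbouring members, the run included, the median was 481 and the highest number 2931.

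The 2 adjacent members were on in Nal-tel and Gordo. Zm00001eb196760 held 173 and 475 in the ninth leaf and 368 and 266 in the fifth leaf of Nal-tel, and 263 and 102 in the ninth leaf and 79.3 and 84.5 in the fifth leaf of Gordo. Zm00001eb196780 held 225 and 706 in the ninth leaf and 633 and 454 in the fifth leaf of Nal-tel, and 579 and 156 in the ninth leaf and 224 and 132 in the fifth leaf of Gordo. The 2 genes ranked the 4 libraries of Nal-tel alike, and in Gordo both were highest in the ninth leaf replicate 1. They had the same state in 4 landraces, opposite states in none, and no state in both in the other 4.

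Outside the on landraces the adjacent members also had a common feature. In Zapalote, Zm00001eb196760 held 0 and 0 in the ninth leaf against 124 and 117 in the fifth leaf. There Zm00001eb196780 held 0 and 2.05 in the ninth leaf against 316 and 343 in the fifth leaf. In both genes the libraries of the ninth leaf were off and those of the fifth leaf on. Palomero separated the 2 genes, with 0 and 0 in the ninth leaf and 3.31 and 0 in the fifth leaf for Zm00001eb196760. For Zm00001eb196780 it held 52 and 40.5 in the ninth leaf and 38.6 and 49.9 in the fifth leaf.

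Genes next to a member but outside the set were then compared between that member's on and off landraces. For each member, up to 10 genes on each side with a mean of at least 10 were used. Directly next to a member, 5 of 68 genes (7.35%) had every library of the on landraces above every library of the off landraces. Over all genes with that mean and the 51 sets of landraces the share was 0.38%. It was 1 of 57 (1.75%) at distance 2, 1 of 197 (0.508%) at distances 3 to 5 and 1 of 318 (0.314%) at distances 6 to 10. In the opposite direction, with the on landraces all below, the counts were 1, 1, 1 and 0 at the same distances, beside 0.31% over all genes. These shares rest on few genes and were not tested.

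Zm00001eb324790 had such a gene on each side. Zm00001eb324780 held 130 and 200 in the ninth leaf and 94.5 and 355 in the fifth leaf of Mushito, and 35.4 and 78.5 in the ninth leaf and 50.7 and 77.4 in the fifth leaf of Palomero. In the off landraces of the member, Nal-tel, Tabloncillo, Jala and Gordo, no library exceeded 4.4. Zm00001eb324800 held 67.5 and 179 in the ninth leaf and 107 and 122 in the fifth leaf of Mushito. In Palomero it was lower, with 20.1 and 13.5 in the ninth leaf and 18.7 and 8.49 in the fifth leaf, still above the highest off library, 8.24 in Gordo. The highest library of each of the 3 consecutive genes was thus a Mushito one, and the flanking 2 missed the rule because Palomero fell below 50.

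After Zm00001eb413480, on in Zapalote and Reventador and off in Palomero and Gordo, 2 further genes followed its landraces. Zm00001eb413480 held 259 and 81.1 in the ninth leaf and 265 and 232 in the fifth leaf of Zapalote, and 92.8 and 378 in the ninth leaf and 266 and 109 in the fifth leaf of Reventador. Zm00001eb413500 averaged 51.5 over these 8 libraries and was at 0 in all 8 off libraries. Zm00001eb413510 averaged 129 over the on landraces and 5.11 over the off landraces. In all 3 genes the ninth leaf replicate 2 of Reventador was the highest library, at 378, 119 and 253.

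A further 4 genes followed a member in the same direction. Zm00001eb339560 averaged 645 over the on landraces of Zm00001eb339570, Mushito and Palomero, and 28.3 over its off landraces. Zm00001eb185500, next to Zm00001eb185490, averaged 261 in Reventador and Gordo and 52.8 in the off landraces. Zm00001eb362910 averaged 57.7 and 11.9, and Zm00001eb270960, at distance 7 from Zm00001eb271040, averaged 429 and 84.2. These neighbours were lower, but not off, in the off landraces.

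Opposite neighbours were rarer. Zm00001eb109150, at distance 2 from Zm00001eb109170, averaged 32.9 in the on landraces Tabloncillo and Jala and 255 in the off landraces Zapalote and Reventador. Zm00001eb277590, near Zm00001eb277650, averaged 3.16 in Tabloncillo and Jala and 71.3 in Nal-tel and Gordo. Zm00001eb331630 averaged 1819 in Nal-tel and Gordo and 2476 in Tabloncillo and Jala. These neighbours were lower where the member was on.

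**Figure D4:**
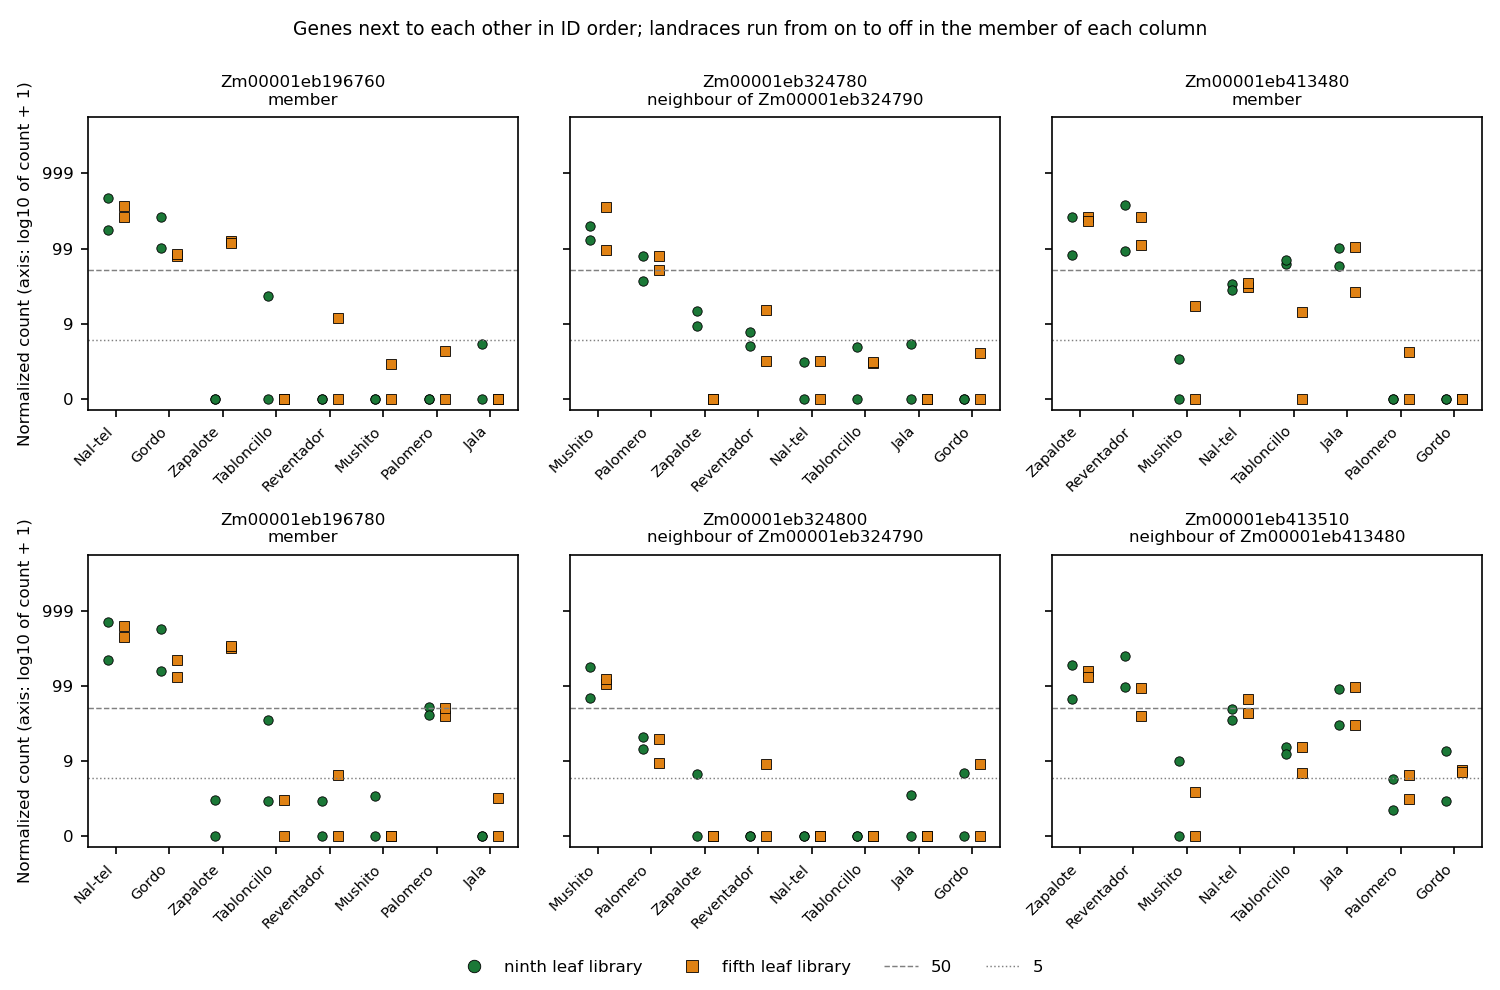
Normalized counts in all 32 libraries for genes close together in ID order, 2 per column, with landraces ordered from on to off in the member of that column; circles are libraries of the ninth leaf, squares those of the fifth leaf, the dashed line marks 50 and the dotted line 5. In the middle column the neighbours of Zm00001eb324790 are highest in Mushito, at 94.5 to 355 in Zm00001eb324780 and 67.5 to 179 in Zm00001eb324800.

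The rule asked the same of both leaves and named no direction between them. It did ask for 50 or more in both leaves of an on landrace, so landraces with a leaf below 50 were left out of the comparison, as Zapalote was for Zm00001eb272460 and Zm00001eb196760. It asked whether members differed between the ninth and the fifth leaf in the landraces where they were on. None of the 51 members passed with limma at an adjusted p of 0.05, and none reached an unadjusted p of 0.05. Neither edgeR's quasi-likelihood test nor DESeq2 on recovered reads called any member. As in limma, the spread in both came from all 32 libraries, split landraces included. Over all 20908 genes on in at least 2 landraces, 19.5% were called, 9.91% higher and 9.61% lower in the ninth leaf, and 31.4% were under an unadjusted p of 0.05. Among the 2318 other genes on in 2 to 6 landraces, 4.75% were called, 2.63% higher and 2.11% lower.

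Median leaf differences and their median errors were larger in members than in other genes, without a test. The absolute log2 difference between leaves had a median of 0.34 in members, 0.27 in other genes on in 2 to 6 landraces and 0.12 in all genes on in at least 2. The standard error had a median of 0.91 in members, 0.41 in other genes on in 2 to 6 landraces and 0.08 in all genes on in at least 2 landraces. The difference is a mean over on landraces, so its error falls with their number. Members were on in 2 landraces (41), 3 (9) or 4 (1). These medians, and the shares called above, are not matched for that number. The residual spread of this fit includes the landraces in which libraries of the same leaf split. The spread was also taken from libraries of the on landraces alone. The median standard error was then 0.35 in members and 0.27 in other genes on in 2 to 6 landraces. In that limma fit 9 of 51 members were under an unadjusted p of 0.05. The share of all genes under it was not counted in that fit, so the 9 cannot be read as many or few.

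Zm00001eb272460 had the smallest p-value of the members. Over Tabloncillo and Jala it averaged 111 ± 32.7 in the ninth leaf and 299 ± 16.6 in the fifth leaf (SD, n = 4 each). The 4 libraries of the ninth leaf, given above, were all below the 4 of the fifth leaf. The log2 difference was -1.46 with a standard error of 0.80, and limma's adjusted p was 0.228. With libraries of the on landraces alone the standard error was 0.25 and limma's adjusted p 0.00569, so the call depended on the libraries that set the spread. In this fit 2 of 51 members passed, both lower in the ninth leaf, while 20.5% of all genes did.

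The other call in that fit was Zm00001eb277650, also on in Tabloncillo and Jala, with a log2 difference of -0.98, a standard error of 0.24 and a limma adjusted p of 0.0222. Tabloncillo held 141 and 108 in the ninth leaf against 591 and 672 in the fifth leaf. Jala held 73.7 and 85.6 in the ninth leaf against 63.2 and 59.3 in the fifth leaf. The mean difference was thus that of Tabloncillo, and Jala went slightly the other way. The remaining member on in these 2 landraces alone, Zm00001eb109170, averaged 102 ± 52.3 in the ninth leaf and 199 ± 45.8 in the fifth (SD, n = 4 each). Its log2 difference was -1.06 with a standard error of 1.16 and a limma adjusted p of 0.588, and with on landraces alone the adjusted p was 0.0821.

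Zm00001eb395730, on in Reventador and Gordo, averaged 102 ± 42.3 in the ninth leaf and 173 ± 65.6 in the fifth (SD, n = 4 each), a log2 difference of -0.77 with limma's adjusted p at 0.387. Of the 2 members with the smallest p-values for a higher ninth leaf, Zm00001eb046490 averaged 280 ± 94.7 in the ninth leaf and 161 ± 73.6 in the fifth leaf of Palomero and Jala (SD, n = 4 each). Its log2 difference was 0.87 and limma's adjusted p 0.439. Zm00001eb223700 averaged 319 ± 148 in the ninth leaf and 192 ± 77.1 in the fifth leaf of Zapalote, Nal-tel and Jala (SD, n = 6 each), with a log2 difference of 0.66 and a limma adjusted p of 0.495. In none of these 3 members did the leaves separate.

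Across members the leaf differences ran from -1.46 to 1.05 on the log2 scale, with a median of -0.10. The ninth leaf was the higher one in 18 of 51 members, and 27 had the same direction in every on landrace. These 2 counts were not made for other genes, so neither can be read as many or few. All libraries of the ninth leaf lay above all those of the fifth leaf in 1 member, Zm00001eb185490, with 173 and 172 against 72.4 and 91.7 in Reventador and 199 and 160 against 54.3 and 140 in Gordo. They lay below in 3 members, Zm00001eb272460, Zm00001eb087650 and Zm00001eb183020. Of 1493 other genes on in 2 to 4 landraces, 1% had the ninth leaf wholly above the fifth and 1.27% wholly below it. These genes were not matched to members for the number of on landraces, which was 2 in 41 of the 51 members. With more on landraces, more libraries must separate, so the shares are not directly comparable. In 5 members the leaves did not overlap in 2 on landraces and went in opposite directions, against 189 of the same 1493 other genes (12.7%). Whether the leaf difference varied between on landraces was tested with a moderated F in limma. It called no member, with none under an unadjusted p of 0.05, and 1 of all 20908 genes (0.00478%). Its residual spread came from all 32 libraries, including landraces in which libraries of the same leaf split. The F was not repeated with libraries of the on landraces alone, so it cannot decide whether leaf differences of members varied there.

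**Figure D5:**
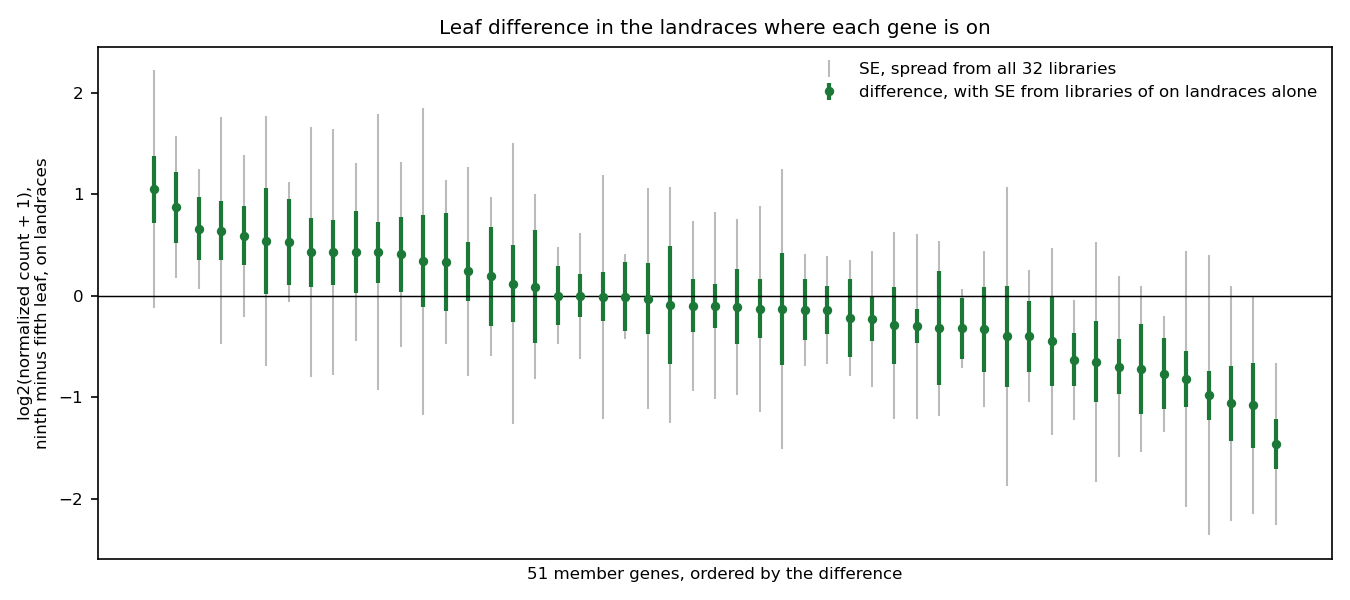
Difference between the ninth and the fifth leaf on the log2(normalized count + 1) scale in the landraces where each of the 51 members is on, ordered by the difference; thin grey bars are standard errors with the spread of all 32 libraries, and thick bars those with libraries of the on landraces alone. The differences run from 1.05 to -1.46, and the grey bars are wider, with a median of 0.91 against 0.35.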

How the data were processed

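Deposited values were a signal of normalized counts, 1 table of 39756 genes by 32 libraries. Per the submitters' processing notes the tools were STAR, featureCounts and DESeq2. Their versions, the strand setting, the genome build and the annotation are not given in the sources used here. Per the labels' protocols, libraries were directional and made from poly(A) RNA. Every value of a library was a multiple of the value of 1 read, within 0.01 of it, so reads could be recovered. No column of another series was present.

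The rule used 5 and 50 normalized counts. The leaf effect was fitted with limma 3.58.1 (eBayes with intensity trend, R 4.3.3) on log2(value + 1), with 16 group means, keeping genes whose mean reached 10, as the ninth minus the fifth leaf averaged over a gene's on landraces. P-values were adjusted by Benjamini-Hochberg over the 20908 genes on in at least 2 landraces, with a threshold of 0.05. The scale understates changes of low genes. Alternatives used edgeR 4.0.16 and DESeq2 1.42.0 on recovered reads, other thresholds, pseudocounts, filters and scalings, and left out each library in turn. The fit with libraries of the on landraces alone and the F-test between on landraces were added after seeing the data. The scripts were tested on simulated data. Python 3.11.15 with pandas 2.3.3, numpy 2.4.6 and matplotlib 3.10.9 did the rest.

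Members, lists and tests were chosen with earlier results of these data known. Genes named were those at the thresholds, the ends of the run, those with the highest mean normalized count in on libraries (Zm00001eb141590 and Zm00001eb399700), those with the most split landraces (Zm00001eb162170, and Zm00001eb277650, which tied with Zm00001eb109170 and had the higher on mean), and the smallest p-values for the leaf effect in each direction. The rule asked for genes past the threshold there; none passed, so these 4 were chosen after their values were seen, as were the remaining genes named. A part of the rule on members with a state in all 8 landraces, and 1 on adjacent members in opposite states, found no gene. Lists of genes by name were not counted, since 0 IDs matched.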

Additional observations from a re-analysis of the deposited data

Results flagged for a closer look

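In 5 members the leaves did not overlap in 2 of the on landraces and lay in opposite directions, which also held for 12.7% of 1493 other genes on in 2 to 4 landraces. Those genes were not matched for the number of on landraces. The difference in leaf effect was not tested for single pairs of landraces. The moderated F between the on landraces called none of the 5, but its residual spread came from all 32 libraries, split landraces included. It was not repeated with libraries of the on landraces alone, so it cannot decide whether these leaf differences vary. All differences are between leaf differences on the log2(value + 1) scale.

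For Zm00001eb141590 the leaf difference in Palomero exceeded that in Reventador by 4.30. The ninth leaf held 831 and 450 and the fifth leaf 401 and 53 in Palomero. In Reventador the ninth leaf held 569 and 508 and the fifth leaf 3967 and 1625. For Zm00001eb277650 the value in Jala exceeded that in Tabloncillo by 2.71. The ninth leaf held 73.7 and 85.6 and the fifth leaf 63.2 and 59.3 in Jala, against 141 and 108 in the ninth leaf and 591 and 672 in the fifth leaf of Tabloncillo. For Zm00001eb290230 Palomero exceeded Reventador by 2.54. The ninth leaf held 1197 and 372 and the fifth leaf 123 and 244 in Palomero, against 58.9 and 58.2 in the ninth leaf and 67.7 and 118 in the fifth leaf of Reventador.

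For Zm00001eb313750 Reventador exceeded Mushito by 1.64. The ninth leaf held 351 and 371 and the fifth leaf 342 and 238 in Reventador, against 130 and 138 in the ninth leaf and 287 and 383 in the fifth leaf of Mushito. For Zm00001eb271040 Gordo exceeded Palomero by 1.33. The ninth leaf held 148 and 122 and the fifth leaf 95.6 and 68 in Gordo, against 73.2 and 62.6 in the ninth leaf and 97 and 109 in the fifth leaf of Palomero. Each group here has 2 libraries, and the leaves of 1 landrace are 2 libraries against 2.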

How the results depend on the processing

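The number of members, 51 by the rule, followed the thresholds. It was 12 with off at 2 or below, 93 with off at 10 or below, 133 with on at 20 or above, 17 with on at 100 or above, and 0 when 3 landraces were needed in each state. Scaling by CPM or TMM changed it to 49 and 50, and leaving out 1 library gave 51 to 69. Runs of adjacent members numbered 1, against 2 with off at 10 and 5 with on at 20, and 1 to 3 with 1 library left out (3 without the fifth leaf replicate 1 of Palomero, and 2 without the fifth leaf replicate 1 of Reventador, the ninth leaf replicate 1 of Tabloncillo, Gordo or Palomero, or either ninth leaf library of Zapalote). Off states of the fifth leaf that held in the ninth, 59.1%, were 65.6% with off at 10 and 63.3% with on at 20. The shares of like states stayed close for Mushito and Palomero (90.9% and 89.8% under these 2 settings), and were 76.5% and 73.5% for Zapalote and Nal-tel and 66.7% and 64.6% for Tabloncillo and Jala.

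Members called for the leaf effect numbered 0, and 0 to 0 with 1 library left out. The count was 1 of 51 with a pseudocount of 10 (Zm00001eb272460, -1.38, limma adjusted p 0.0282), where 19.5% of all genes on in at least 2 landraces were called. It was 2 of 51 with libraries of the on landraces alone, where 20.5% of those genes were called. The cause was not tested beyond the standard errors given. As the mean over all 8 landraces, Zm00001eb272460 reversed to 0.51 (limma adjusted p 0.403) and Zm00001eb395730 to 0.18 (0.696), since landraces where they are not on then enter. With 1 library left out, the log2 differences ran from 0.51 to 1.23 in Zm00001eb046490, 0.43 to 0.88 in Zm00001eb223700, -1.67 to -1.25 in Zm00001eb272460 and -1.05 to -0.49 in Zm00001eb395730. Replicate numbers did not pair the leaves: deviations correlated between -0.175 and 0.112, over 0.1 in 1 of 8 landraces, and with a replicate block 0 members were called.

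With 2 libraries per landrace and leaf, 1 library can end an on or off state. Depth limits off states to a few reads, and the wide standard errors limit what the leaf comparison can show.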
